A study of Mus musculus with 2 samples.

Results

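The 10 genes described here encode proteins of the lipid droplet surface and the lipase step that empties it, and were chosen by symbol: Plin2, Plin4, Plin5, Cidea, Cideb, Cidec, Fitm1, Fitm2, G0s2 and Pnpla2. The choice was made with earlier results of these data known. All 10 symbols matched a row of the authors' deposited table, of 23283 gene rows in all, and all 10 rows had an OK status. The table holds RNA-seq values of whole livers of male C57Bl/6 mice aged 6 months, perfused before RNA was taken. Mice of both groups were homozygous for floxed Akt1 and null for Akt2 in the whole body. Mice of the second group also carried Alb-Cre, a recombinase expressed from the albumin promoter, which acts in hepatocytes and removes floxed sequence. Akt1 and Akt2 are kinases downstream of the insulin receptor, so by its labels the comparison asks what changes when Akt1 is also removed from hepatocytes without Akt2. The mRNA of 4 livers was pooled into 1 library per group, and the libraries are called control and Alb-Cre. With 1 library per group no value has a replicate error, no difference has a test, and the 2 levels of a gene are given as they stand.

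Hepatocytes store triglyceride in droplets bounded by a single phospholipid layer. FIT proteins (fat storage-inducing transmembrane proteins) of the endoplasmic reticulum help droplets to form, perilipins coat them, and CIDE proteins promote lipid transfer between droplets and lipid loading of lipoproteins. Pnpla2 encodes adipose triglyceride lipase, which removes the first fatty acid from stored triglyceride. The product of G0s2 binds and inhibits that lipase, while the product of Abhd5 activates it. In fasting liver, low insulin is known to favour lipolysis, and Pnpla2 has been described as induced by FoxO1, a transcription factor that Akt restrains.

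Levels are FPKM as deposited by the authors (fragment counts corrected for transcript length and library size), which lets genes be compared with each other. A difference is given as the log2 ratio of the Alb-Cre to the control level after 1 FPKM was added to each, which understates the ratio of low genes. Measured genes were those of OK status that reached 1 FPKM in at least 1 library, namely 11406 genes, with all 10 members among them. They were called higher or lower where the log2 ratio reached 1 in size, a 2-fold difference on that scale. All measured genes together had a median log2 ratio of -0.06, and it was -0.13 over 4964 genes that reached 10 FPKM in each library. Akt1 itself had 23.7 FPKM in control and 17.1 FPKM in Alb-Cre livers, and Akt2 had 37.5 and 33.5 FPKM, although both groups were labelled Akt2-null. Summed FPKM of 9 usable hepatocyte markers was 18963 in control and 17288 in Alb-Cre livers. Of these markers 2 had ratios above 0, Hpd (1606 and 2524 FPKM) and Tat (874 and 1883 FPKM), and the others had ratios below 0. Ttr, the most abundant of them, had 6489 and 3627 FPKM and differed by more than the sum did. Read totals are not given in the sources used here, but the lowest values stepped in units worth 0.0082 FPKM per read in a 1 kb transcript of the control library and 0.00731 FPKM in the Alb-Cre library, estimated from 132 and 135 genes with 1 annotated transcript.

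Promoter sequence is shown for Fitm1, G0s2 and Pnpla2, since these members with RefSeq promoter entries differed by 2-fold or more. Of the 10 members 9 matched an entry of RefSeq on GRCm38.p6 (the assembly behind mm10), and Cidea is named only. Each line below reads 5′ to 3′ on the gene's strand and stops just before the most upstream start annotated by RefSeq or GENCODE vM21. Capitals mark matches on either strand to GGGCGG, the GC box. They also mark matches to CCACCC, a motif of Krüppel-like factors, and such matches share bases where they run together. The Fitm1 stretch is chr14:55575424-55575616 on the plus strand, that of G0s2 is chr1:193273218-193273438 on the minus strand, and that of Pnpla2 is chr7:141454938-141455187 on the plus strand.
Fitm1: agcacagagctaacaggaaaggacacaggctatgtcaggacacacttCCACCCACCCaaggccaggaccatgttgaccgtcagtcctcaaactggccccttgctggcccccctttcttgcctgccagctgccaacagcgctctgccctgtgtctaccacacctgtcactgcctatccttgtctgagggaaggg
G0s2: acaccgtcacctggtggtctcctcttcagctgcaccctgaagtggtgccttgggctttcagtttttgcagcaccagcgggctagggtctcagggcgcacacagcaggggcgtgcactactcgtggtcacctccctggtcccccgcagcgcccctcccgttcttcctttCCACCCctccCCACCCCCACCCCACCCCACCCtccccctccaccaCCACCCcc
Pnpla2: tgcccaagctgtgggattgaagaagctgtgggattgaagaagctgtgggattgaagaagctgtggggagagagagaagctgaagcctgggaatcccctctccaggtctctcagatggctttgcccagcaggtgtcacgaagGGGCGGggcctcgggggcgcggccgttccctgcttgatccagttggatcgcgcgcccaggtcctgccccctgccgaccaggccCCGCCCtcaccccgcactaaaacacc

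The search covered the whole RefSeq window of each gene, 250 bases before and 50 bases after the RefSeq start, on both strands, with motifs chosen in part after these sequences had been seen. G0s2 held CCACCC 6 times, the first of them starting 82 bases before and all ahead of the RefSeq start, and Fitm1 held it 2 times, whereas Pnpla2 held none and Plin5 was the other member with matches. Of 32851 such windows in the table, 31.5% held CCACCC at least once. GGGCGG was found 2 times for Pnpla2 and 1 time for G0s2, there past the end of the printed stretch. It was also in windows of Plin2, Plin5, Cideb and Fitm2, and in 35.7% of all windows. GTAAACA, a FoxO-type motif, was in none of the windows of the 9 matched members and in 3.65% of all windows, which says only that these letters are missing from these windows. AGGTCA, the half-site of PPAR and related nuclear receptors, was in the windows of Plin2 and Plin5 and in 16.3% of all windows. CACGTG, a palindromic E-box, was in the Plin2 window alone among the members, starting 4 bases before the RefSeq start, and in 7.15% of all windows. TATAAA was found for Cideb alone among them, beside 13.6% of all windows, and CCAAT for Plin2, Plin4 and Plin5, beside 37.4%. These matches describe the letters and were not tied to the levels.

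In Alb-Cre livers the lipase gene was higher and its inhibitor lower, together with 2 droplet genes that were lower. Pnpla2 was the 1 member of 10 that was at least 2-fold higher, while Fitm1, G0s2 and Cidea, 3 of 10, were at least 2-fold lower. Among all measured genes 3.75% were higher and 1.83% lower by the same limits. Cidea counted as measured only through the control library, where it was higher, and with a minimum of 5 FPKM 2 members were lower. The other 6 members lay between the limits. The members' median log2 ratio was -0.40, with 7 ratios below 0 and 3 above. Of all 11406 measured genes 6711 had ratios below 0, so the members' split is near that of all genes. A level in bulk liver cannot tell fewer cells of a type from less RNA per cell.

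**Figure D1:**
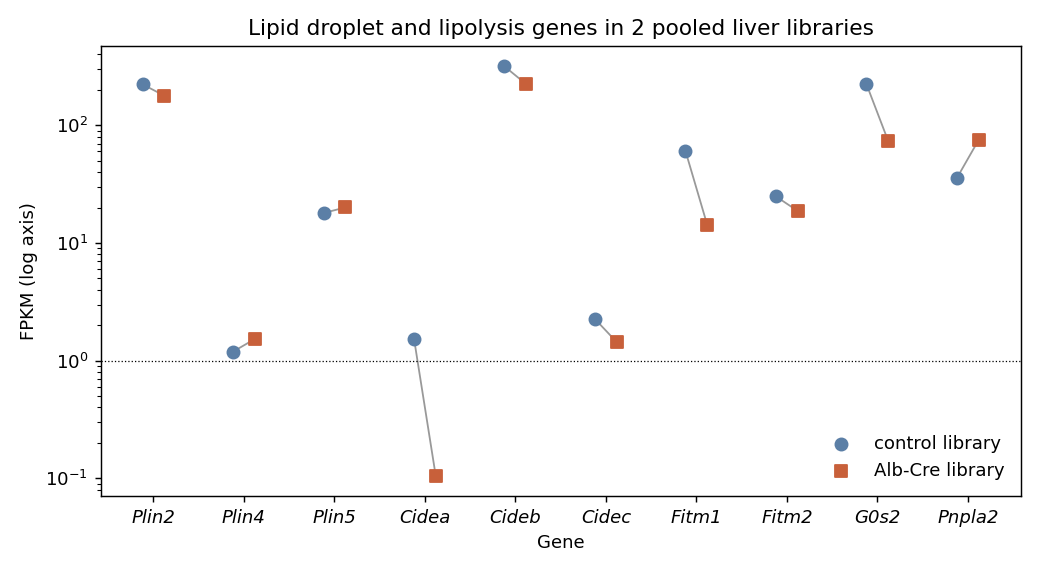
FPKM of the 10 genes (log axis) in the control library (circles) and the Alb-Cre library (squares), 1 pooled library per group, with lines joining the 2 values of a gene and a dotted line at 1 FPKM. Fitm1, G0s2 and Cidea sit clearly lower in the Alb-Cre library and Pnpla2 higher, while Plin2, Plin5, Cideb and Fitm2 keep nearly the same height.

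Pnpla2 (mm10 chromosome 7, 141455198 to 141460743) had 35.8 FPKM in control livers and 75.2 FPKM in Alb-Cre livers, a 2.103-fold higher level and a log2 ratio of 1.05. Its ratio was exceeded by 383 of the 11406 measured genes, 3.36% of them. With 5 FPKM added in place of 1 FPKM the log2 ratio was 0.98, just under the limit.

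G0s2 (chromosome 1, 193272161 to 193273217) had 224 FPKM in control livers and 73.7 FPKM in Alb-Cre livers. Its level was 3.04-fold lower, a log2 ratio of -1.59, and 73 measured genes, 0.640%, had a lower ratio. In the ranking of measured genes by level G0s2 moved from place 498 to place 1182, and Pnpla2 from place 2246 to place 1164. The inhibitor and the lipase thus stood far apart in the control library and side by side in the Alb-Cre library.

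The same levels can be set against each other within each library, where scaling between libraries has no part. There were 6.25 FPKM of G0s2 per FPKM of Pnpla2 in control livers and 0.98 in Alb-Cre livers, a 6.38-fold difference of this ratio. It combines the differences of G0s2 and Pnpla2 given above and adds no separate observation. Abhd5, which encodes the activator of the lipase, had 12.3 FPKM in control and 11.2 FPKM in Alb-Cre livers (log2 ratio -0.13). Its level per FPKM of Pnpla2 was 0.345 and 0.149, a difference that comes mainly from Pnpla2. The activator's transcript stayed between the limits, and G0s2 remained the more abundant of these 2 regulators, with 18.1 FPKM per FPKM of Abhd5 in the control and 6.56 in the Alb-Cre library.

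**Figure D2:**
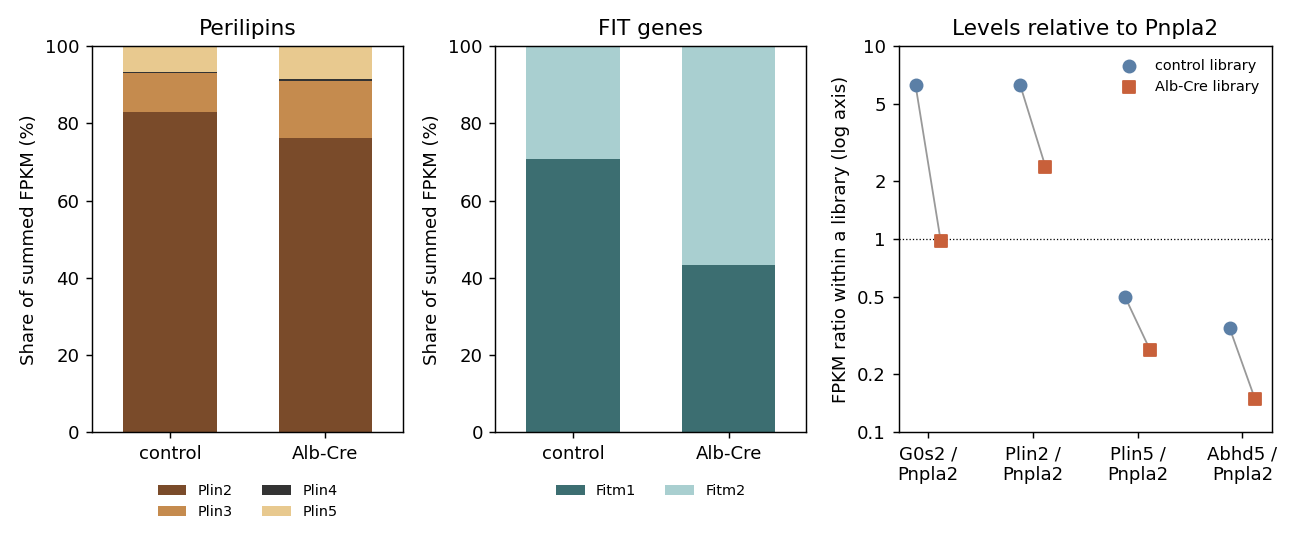
Left and middle, share of each perilipin and each FIT gene in the summed FPKM of its family (%) in the control and Alb-Cre libraries. Right, FPKM of G0s2, Plin2, Plin5 and Abhd5 divided by that of Pnpla2 in the same library (log axis; circles control, squares Alb-Cre; dotted line at 1). Fitm1 goes from 70.9% to 43.3% of the FIT sum, and G0s2 over Pnpla2 goes from 6.25 to 0.98.

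Other genes that act on the lipase or on later steps lay between the limits with 1 FPKM added. Hilpda, whose product is another inhibitor of the lipase, had 2.74 FPKM in control and 4.92 FPKM in Alb-Cre livers (log2 ratio 0.66), the opposite direction from G0s2 at a far lower level. Pnpla3, a relative of the lipase that binds the product of Abhd5, had 0.848 and 2.197 FPKM (0.79) and reached 1 FPKM only in the Alb-Cre library. Lipe, hormone-sensitive lipase, which cleaves diglyceride, had 8.29 and 6.41 FPKM (-0.33). Mgll, monoglyceride lipase, which acts last in the series, had 63.5 and 32.1 FPKM, a log2 ratio of -0.96 that stopped short of the limit. Of Pnpla2, Lipe and Mgll, which act on successive steps of triglyceride breakdown, Pnpla2 alone was higher. Among its relatives, Pnpla3 (0.79) and Pnpla5 (1.63) also had ratios above 0, while Pnpla6 (-0.34), Pnpla7 (-0.01) and Pnpla8 (-0.25) had ratios below 0.

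Fitm1 had the lowest ratio of the 10 members with 1 FPKM added, while Cidea had the lowest with 0.1 FPKM added (-3.00 against -2.07). Fitm1 (chromosome 14, 55575617 to 55576954), known chiefly from skeletal muscle and heart, had 60.5 FPKM in control livers and 14.3 FPKM in Alb-Cre livers. The level was 4.23-fold lower and the log2 ratio -2.01. Of all 11406 measured genes 44 had a lower ratio. When short RNA features such as microRNA and snoRNA genes are left out, 6 of 11218 did, beside 32 for G0s2. Fitm2 (chromosome 2, 163466379 to 163472629), the more widely expressed FIT gene, had 24.9 and 18.7 FPKM, a log2 ratio of -0.39. Fitm1 supplied 70.9% of the summed FIT level in control and 43.3% in Alb-Cre livers, so the order of the pair was turned around. The FIT sum itself was 85.3 FPKM in control and 33.0 FPKM in Alb-Cre livers. The 6 skeletal muscle markers looked up (Ckm, Acta1, Mb, Tnnt3, Mylpf and Tnni2) were under 1 FPKM in both libraries, and their sum was 1.02 FPKM in the control and 1.19 FPKM in the Alb-Cre library. GENCODE places an exon of Gm15932 on the opposite strand over Fitm1, and 2310001K24Rik likewise over Fitm2. The sources used here do not say whether counting used strand, so reads of such pairs cannot be told apart.

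**Figure D3:**
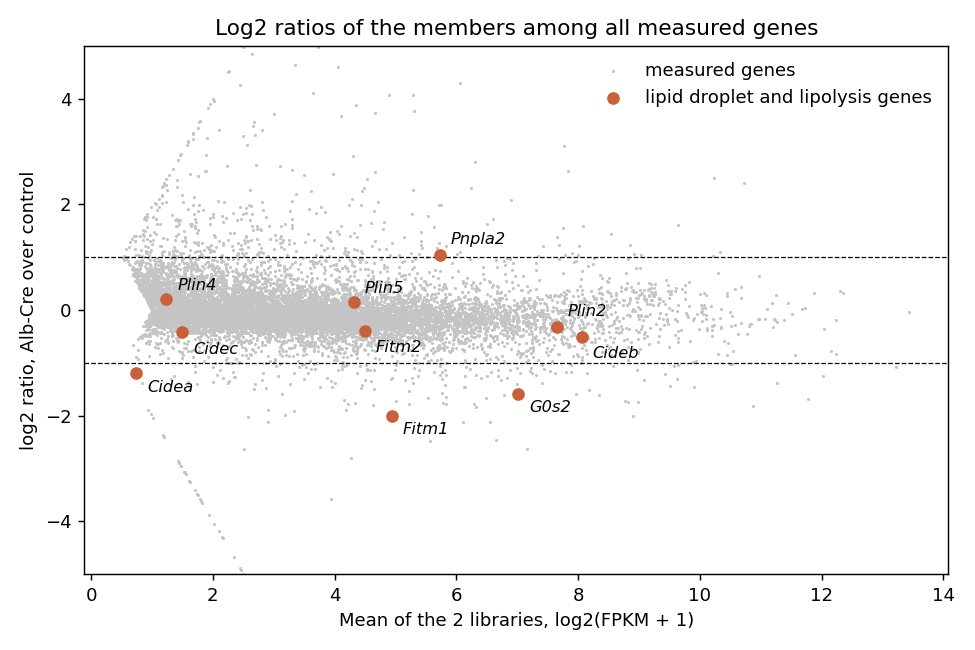
Log2 ratio of Alb-Cre over control against the mean level of the 2 libraries, log2(FPKM + 1), for the 11406 measured genes (grey) and the 10 members (orange), with dashed lines at the 2-fold limits; 28 genes beyond a log2 ratio of 5 in size lie outside the axis. Fitm1 (-2.01), G0s2 (-1.59) and Cidea (-1.20) lie below the lower line and Pnpla2 (1.05) just above the upper one.

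The CIDE genes all had ratios below 0, of very different size and at very different levels, and Cidea alone was past the limit. Cideb (chromosome 14, 55754050 to 55758458), the family member typical of hepatocytes and known for its part in loading lipid onto very low density lipoprotein, had 317 and 224 FPKM (log2 ratio -0.50). It was the most abundant of the 10 members in both libraries. Cideb made up 98.8% of the summed CIDE level in the control and 99.3% in the Alb-Cre library. Cidec (chromosome 6, 113424634 to 113435760), which promotes droplet fusion in white fat and rises in fatty liver, had 2.26 and 1.44 FPKM (-0.42).

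Cidea (chromosome 18, 67343604 to 67367785), best known from brown fat, had 1.54 FPKM in control livers and 0.105 FPKM in Alb-Cre livers. The log2 ratio was -1.20 with 1 FPKM added, while the FPKM levels alone differed 14.6-fold. By the estimated worth of 1 read and a transcript of 1115 bases, these levels stand for about 209 reads in the control and about 16.0 in the Alb-Cre library. Cidea reached the minimum of 1 FPKM only through the control library, and with 5 FPKM added its log2 ratio was -0.36, so its call depends on the constant added. Cideb shares exon bases with Nop9 on the opposite strand by GENCODE, which limits its value as for the FIT genes.

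Perilipin levels lay between the limits. Plin2 (chromosome 4, 86648386 to 86670060), the main droplet coat gene of hepatocytes, had 223 FPKM in control and 179 FPKM in Alb-Cre livers (log2 ratio -0.32). Plin5 (chromosome 17, 56111601 to 56117596), whose product holds the lipase and its activator at the droplet and ties droplets to mitochondria, had 17.98 and 20.04 FPKM (0.15). Plin4 (chromosome 17, 56100591 to 56109803), which coats small new droplets and is abundant in fat and muscle, had 1.19 and 1.53 FPKM (0.20). By the same rough estimate and the longest annotated transcript, 5756 bases, these Plin4 levels stand for about 837 and 1202 reads. Its exons overlap Hdgfl2 on the opposite strand, which the deposited rows name Hdgfrp2, at 12.9 and 13.1 FPKM. How many of the Plin4 reads belong to that gene was not tested.

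Plin3, a perilipin that also occurs free in the cytosol and is no member here, had 26.6 and 34.2 FPKM (0.35). Plin1, the coat protein of fat cells, had 0.00427 FPKM in the control library and was listed at 0 in the Alb-Cre library. Plin2 made up 83.0% of the summed level of Plin2 to Plin5 in the control and 76.2% in the Alb-Cre library. Plin5 made up 6.68% and 8.55%, and Plin3 made up 9.90% and 14.6%. The perilipin mixture was thus much alike in both libraries, with Plin2 far in front. Relative to the lipase the levels differed more: there were 6.24 FPKM of Plin2 per FPKM of Pnpla2 in control and 2.38 in Alb-Cre livers, and 0.503 and 0.267 of Plin5. Both ratios differ mainly through the Pnpla2 level they are divided by.

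Ordered by level, the control library ran from Cideb through G0s2, Plin2, Fitm1, Pnpla2, Fitm2, Plin5, Cidec and Cidea to Plin4. In the Alb-Cre library the order was Cideb, Plin2, Pnpla2, G0s2, Plin5, Fitm2, Fitm1, Plin4, Cidec and Cidea. G0s2 and Plin2, at 224 and 223 FPKM, were level in the control library, and with no spread between mice it cannot be said which other neighbours differ. In each library 3 of the members lay below 3 FPKM.

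None of the 10 members carried a yes call in the authors' deposited table, where 100 of the 14868 rows with an OK status did, or 0.673%. Fitm1 came nearest, with a p-value of 0.00035 and a q-value of 0.0500 in the authors' deposited table. G0s2 had a p-value of 0.00085 and a q-value of 0.0936 in the authors' deposited table. For Pnpla2 the authors' deposited table gave a p-value of 0.0196 and a q-value of 0.629, and for Cidea 0.0542 and 0.944. These p-values compare 2 pooled libraries under a modelled spread and not the genotypes.

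The gene lists that follow were chosen with earlier results of these data known, so their shares are descriptions and no test of enrichment. Beyond the members, 26 genes of droplet coat, droplet biogenesis and triglyceride synthesis were measured. Of these 1 was at least 2-fold higher (3.85%, beside 3.75% of all measured genes) and 0 were lower (beside 1.83%), shares near the background, and the median log2 ratio was -0.17. The higher gene was Acsl4, an acyl-CoA synthetase with a preference for arachidonic acid (27.8 and 59.1 FPKM, 1.06). Tmem159, the partner of seipin at sites of droplet formation, had 1.22 and 3.31 FPKM (0.96), and seipin's own gene Bscl2, named after its value was seen, had 29.6 and 21.8 FPKM (-0.43). Dhrs1, a short-chain dehydrogenase found on droplets, had 128 and 66.8 FPKM (-0.93), and Mogat2, an acyltransferase that makes diglyceride, had 0.316 and 1.24 FPKM (0.77).

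The other lipases and carboxylesterases held several lower genes. Among 23 measured genes 6 were at least 2-fold lower, 26.1% beside 1.83% of all measured genes. Another 1 was at least 2-fold higher, 4.35% beside 3.75%. The median log2 ratio was -0.58. Since the list was chosen with earlier results known, these shares do not test whether such genes are lower as a group. Of the 23 ratios 21 were below 0, as were 6711 of the 11406 ratios of all measured genes. All 6 lower genes were carboxylesterases of the Ces1 and Ces3 groups. Ces1d, which encodes a triglyceride hydrolase of liver, had 794 and 239 FPKM (-1.73). Ces1e had 151 and 41.6 FPKM (-1.84), and Ces3a had 925 and 276 FPKM (-1.74). The Ces1 genes are related copies in a row, as are the Ces3 genes, and how far reads were shared among them was not examined. Pnpla5, a relative of the lipase, was the higher gene (0.208 and 2.73 FPKM, 1.63), and it reached 1 FPKM only in the Alb-Cre library.

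**Figure D4:**
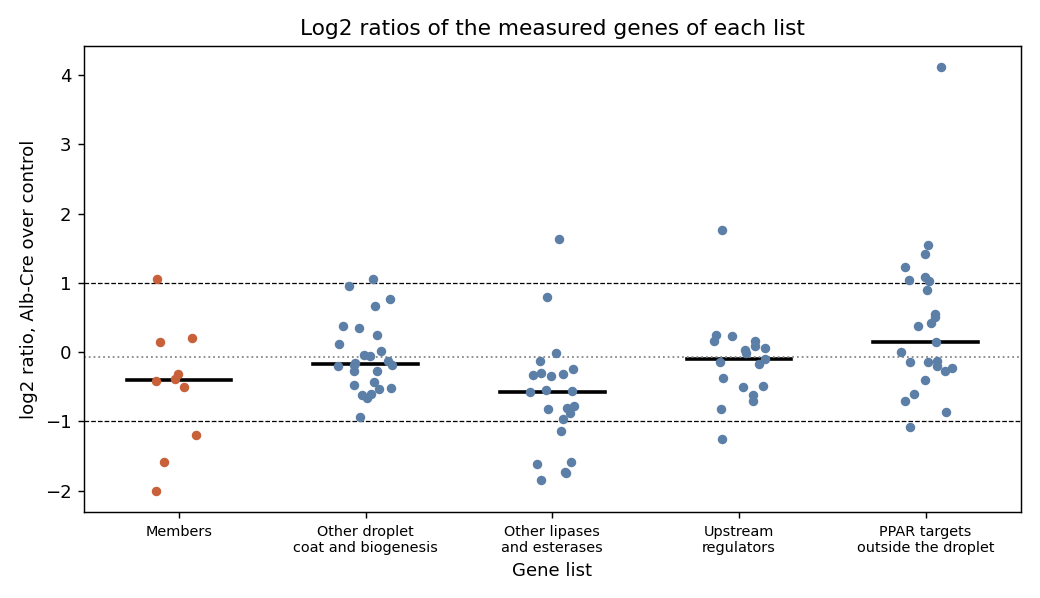
Log2 ratio of Alb-Cre over control for the measured genes of 5 lists, 1 point per gene, with the median of each list as a bar, the median of all measured genes (-0.06) as a dotted line and the 2-fold limits as dashed lines. Lipases and esterases reach the lowest median (-0.58), and PPAR targets outside the droplet the highest (0.14).

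Of 19 measured regulators of these genes 1 was higher by the limit, 5.26% beside 3.75% of all measured genes. Another 1 was lower, 5.26% beside 1.83%, so these shares rest on 1 gene each way. The median log2 ratio was -0.10. Ppargc1a, a coactivator of mitochondrial and fasting genes, had 2.96 and 12.5 FPKM (1.77), and Srebf1, the lipogenic factor, had 158 and 65.6 FPKM (-1.25). Ppara, the fasting receptor that drives fatty acid oxidation, had 69.7 and 42.2 FPKM (-0.71), and Cebpa, a factor of hepatocyte identity, had 273 and 153 FPKM (-0.83). Pparg, the receptor that drives Cidec and Plin4 in fat, had 9.96 and 11.3 FPKM (0.16). Neither Ppara nor Pparg was past the limit. Foxo1, named after its value was seen like the next 2 genes, had 11.4 FPKM in each library (-0.007). Foxo3 had a log2 ratio of -0.14 and Foxo4 one of -0.18. The activity of these factors, and their part in the Pnpla2 level, was not tested.

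PPAR targets outside the droplet went both ways, with a median log2 ratio of 0.14. Of 25 measured genes 7 were higher, 28% beside 3.75% of all measured genes, and 1 was lower, 4% beside 1.83%. This list too was chosen with earlier results known, so its shares do not test PPAR targets as a group. The fatty acid hydroxylase genes Cyp4a14 (125 and 366 FPKM, 1.55), Cyp4a10 (133 and 312 FPKM, 1.22) and Cyp4a31 (1.996 and 50.97 FPKM, 4.12) were higher, and how far reads were shared among these related copies was not examined. Pdk4, a kinase that limits glucose oxidation, had 1.49 and 5.66 FPKM (1.42). The count of 7 was completed by Cd36 (25.3 and 54.9 FPKM, 1.09), Fabp4 (11.8 and 25.4 FPKM, 1.04) and Ucp2 (5.50 and 12.3 FPKM, 1.03). Fabp4 is also among the fat cell markers below, and the cells that gave these levels were not tested. The lower gene was Fabp1, the fatty acid binding protein of liver (13932 and 6577 FPKM, -1.08). Several members, among them Plin2, Plin4, Plin5, Cidea and Cidec, have been described as PPAR targets too, and this naming is not complete. The log2 ratios of those named ran from -1.20 for Cidea to 0.20 for Plin4. Over all 10 members they ran from -2.01 for Fitm1 to 1.05 for Pnpla2.

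Markers of other cell types in liver also differed. All 8 usable macrophage markers had ratios above 0, and 3 of 7 measured ones were at least 2-fold higher, beside 3.75% of all measured genes. The summed level of the 8 was 105 FPKM in the control and 258 FPKM in the Alb-Cre library. All 8 stellate cell markers, for cells that store retinyl esters in droplets, had ratios above 0, with sums of 49.0 and 71.4 FPKM and none past the limit. Sums were 2.42 and 6.15 FPKM for 5 T, NK and B cell markers, all with ratios above 0. For 4 endothelial markers they were 61.7 and 81.7 FPKM, mostly from Clec4g (47.0 and 65.6 FPKM). Of these 3 had ratios above 0 and Stab2 was below 0 (2.27 and 0.98 FPKM, -0.72). For 4 bile duct markers the sums were 3.40 and 3.29 FPKM, with 2 ratios above 0. The part of these cells in the levels of the members was not tested. Of the 8 fat cell markers in the table, 5 were under 1 FPKM in both libraries, among them Adipoq, Lep and Plin1, each under 0.1 FPKM. Of the other 3, Adrb3 had 2.65 and 2.62 FPKM, Fabp4, also made by endothelium and macrophages, had 11.8 and 25.4 FPKM, and Cfd had 6.70 FPKM in the control and was listed at 0 in the Alb-Cre library. The sum over 8 fat cell markers was 21.3 and 28.2 FPKM.

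**Figure D5:**
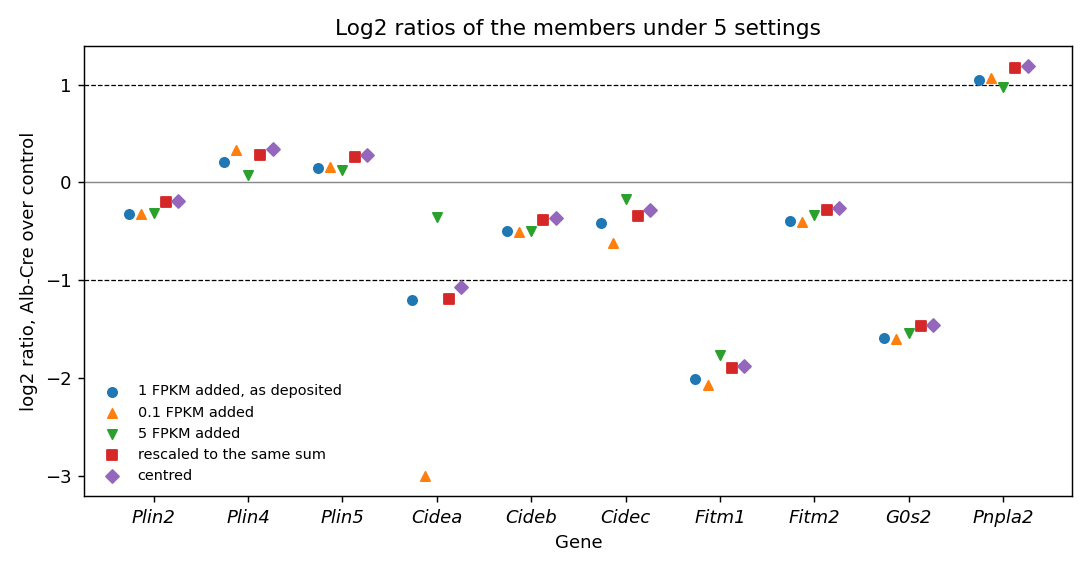
Log2 ratio of Alb-Cre over control for the 10 members under 5 settings: 1, 0.1 or 5 FPKM added, libraries rescaled to the same summed FPKM, and ratios centred on genes that reached 10 FPKM in each library; dashed lines mark the 2-fold limits. Fitm1 stays between -2.07 and -1.76 and G0s2 between -1.60 and -1.45, while Cidea ranges from -3.00 to -0.36 and Pnpla2 from 0.98 to 1.19.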

How the data were processed

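RNA-seq of 2 pooled liver libraries was analysed, 1 per genotype and 4 livers each, per the labels. FastQC, TopHat2 2.0.8, Cuffdiff 2.1.1 and the build mm10 are named, with no role or order, per the submitters' processing notes; settings, annotation and strandedness are not given in the sources used here. Per the file headers, the deposited table follows the Cuffdiff layout and gives each gene an FPKM per library. Its p-value and q-value columns are the authors' own, per the file headers.

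Members and gene lists were chosen with earlier results of these data known. Log2 ratios used a pseudocount of 1 FPKM, a minimum of 1 FPKM in at least 1 library, rows of status OK and a 2-fold limit; no p-value was computed. The genes named were the 10 members, from each list the 4 genes farthest from 0 and 9 genes named whatever their value; others are marked as such or follow from a small count. Alternatives were pseudocounts of 0.1 and 5 FPKM, rescaled or centred libraries, other minimums, statuses and limits, and the mean. The worth of 1 read was the median of FPKM times transcript length in kb between 0.004 and 0.012, over genes with 1 GENCODE vM21 transcript of at least 800 bases; it holds if FPKM was scaled by fragments alone, and it does not cover variation between mice. Positions are GENCODE vM21 on mm10, counted from 1. Computation used Python 3.11.15, pandas 2.3.3, numpy 2.4.6 and matplotlib 3.10.9. It was run on simulated data without noise and with ratios well past the limit, which checks the arithmetic only.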

Additional observations from a re-analysis of the deposited data

How the results depend on the processing

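All 40 member ratios under 4 alternatives kept their sign, and 38 kept their side of the 2-fold limit, though sizes of low genes moved, as for Cidea (-3.00 with 0.1 FPKM added). The exceptions came with 5 FPKM added, where Pnpla2 had 0.98 and Cidea -0.36, which left 0 members higher. That setting shrinks low genes such as Cidea by construction. Pnpla2, at 35.8 and 75.2 FPKM, is no low gene, but its main log2 ratio of 1.05 lay close to the limit. A 4-fold limit left 0 members higher and 1 lower. Centring, a shift of 0.13, moved the members' median to -0.27; over all measured genes, 67.2% of called genes were higher as deposited and 78.0% after centring.

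For droplet coat and biogenesis genes, the count called either way was 4 with 0.1 FPKM added, 0 with 5 FPKM, 2 rescaled, 2 centred, 8 at 1.5-fold and 0 at 4-fold, and the median was -0.052 rescaled and -0.033 centred. Lipases and esterases had 13 at 1.5-fold and 0 at 4-fold, with medians of -0.48 rescaled, -0.45 centred and -0.78 at a minimum of 5 FPKM. Regulators had 5 at 1.5-fold and 0 at 4-fold, with medians of 0.015 rescaled and 0.031 centred, where the sign turned. PPAR targets had 4 with 5 FPKM added and 1 at 4-fold, with medians of 0.26 rescaled, 0.27 centred and 0.26 with no minimum. The cause was not tested. Apart from the member ratios, 74 of 100 alternatives stayed within 1.5 times for counts and ratios, 0.1 for medians and 5 percentage points for shares. No paired analysis was possible because each group is 1 pooled library, and no library could be left out.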

Other observations

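Of the 20 nearest rows of the deposited table on either side of the members 17 were measured and 0 were past the 2-fold limit, where 3.75% of all measured genes were higher and 1.83% lower, so a count of 0 is near that background. Fitm1 lay between Dcaf11, with 160 FPKM in control and 134 FPKM in Alb-Cre livers (log2 ratio -0.25), and Fam158a, with 38.1 and 30.4 FPKM (-0.32). Beside G0s2 lay Hsd11b1, the enzyme that regenerates active glucocorticoid, with 761 and 541 FPKM (-0.49), and Lamb3, with 1.097 and 0.741 FPKM (-0.27). Beside Pnpla2 lay Snora52 (16.2 and 21.9 FPKM, 0.41) and Efcab4a (1.83 and 2.67 FPKM, 0.37). Next to Cidea, Tubb6 had 5.87 and 9.91 FPKM (0.67) and B430212C06Rik was under 1 FPKM in both libraries.

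Plin4 and Plin5 are neighbours of each other on chromosome 17, with log2 ratios of 0.20 and 0.15, between Hdgfrp2 (0.02) and Lrg1 (-0.19). The row beside Fitm2 with the largest difference was 0610008F07Rik (9.70 and 4.52 FPKM, -0.96), and 2310001K24Rik on its other side had -0.38. The rows beside Cidec were Rpusd3 (-0.57) and Jagn1 (-0.34), those beside Cideb were 2610027L16Rik (-0.22) and Ltb4r2 (-0.09), and those beside Plin2 were Dennd4c (-0.22) and Scarna8, listed at 0 in both libraries.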
